A study of Homo sapiens with 16 samples.

Results

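AP-1 is a transcription factor made of pairs of basic leucine zipper proteins, and the 9 genes described here encode its subunits: the Jun proteins JUN, JUNB and JUND, the Fos proteins FOS, FOSB, FOSL1 (Fra-1) and FOSL2 (Fra-2), and the related partners ATF3 and BATF. They were taken as a fixed list out of 19970 protein-coding genes, and for each one the p65 ChIP signal was read in every 200-bp bin from 50 kb upstream of the gene to 10 kb downstream of its end. The intervals held 3382 of the 15155213 bins of the genome.

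AP-1 pairs bind the motif TGACTCA or TGAGTCA, and Jun with ATF family proteins also binds the cyclic AMP response element TGACGTCA. p65 is the RELA subunit of NFκB, which moves into the nucleus when cells meet the inflammatory cytokine TNFα and binds κB motifs. Several AP-1 subunits are immediate early genes, switched on within minutes by the same stimuli, and AP-1 and NFκB sites often lie side by side in the enhancers of inflammatory genes of the gut epithelium.

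Chromatin came from HT29 and SW480, which are human colon cancer cell lines. Each line carried either a stably transfected ERβ (the estrogen receptor encoded by ESR2) or a mock construct, and all cells had received TNFα (30 ng/mL) for 30 minutes before cross-linking with DSG and formaldehyde. Each of the 4 conditions, HT29 mock, HT29 ERβ, SW480 mock and SW480 ERβ, had 3 p65 ChIP libraries and 1 input library. No untreated library was analysed here, so the values describe occupancy after TNFα and not a response to it, and in bulk chromatin fewer occupied cells and weaker occupancy per cell cannot be told apart. ERβ was a transgene kept in selected cells, and the methods call the 3 ChIP libraries of a condition biological replicates, so p-values measure the spread between these libraries.

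The signal is the tag density deposited by the authors, scaled to 10 M tags per library, so a bin at 2 had a mean density of 2 tags on that scale. The scaled tracks hold no read depth, and no counting interval is given. In the check of the labels, the ratio of signal over ESR2 coding exons to signal over the rest of that gene was 2.49 to 7.11 in the 6 ERβ ChIP libraries and 1.02 to 1.51 in the 6 mock ChIP libraries. The inputs of the ERβ cells, which belonged to another set of libraries than the ChIP samples, had ratios of 2.09 (HT29) and 1.76 (SW480), against 1.19 and 1.51 in the mock inputs. Some libraries stood apart within their condition: over the whole genome HT29 mock 1 had 94353 stretches at a density of 2 or more, against 34033 and 35983 in HT29 mock 2 and 3, and SW480 ERβ 1 had 44997, against 92169 and 91711 in SW480 ERβ 2 and 3.

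A bin was listed for a condition when the mean of its 3 ChIP libraries was at least 2 and at least 4 times the matched input. Listed bins of any condition no more than 1 bin apart were joined into a region, and each region is described by its bin with the highest mean over the 12 ChIP libraries. The sequences of some of the bins on which the results turn follow, read 5′ to 3′ on the plus strand of GRCh38. They are not simply the strongest bins. Each holds a κB or AP-1 match. Of the 16 regions found, the described bin held a κB match in 8 and an AP-1 motif in 2. Bins without a match, and some with one, are not shown. Capitals mark matches to the κB consensus on either strand, overlapping matches being joined, except in the FOSB sequence and in the second block of the nearer FOSL1 sequence, where they mark an AP-1 motif.

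JUNB, past the 3′ end, chr19:12793601-12793800: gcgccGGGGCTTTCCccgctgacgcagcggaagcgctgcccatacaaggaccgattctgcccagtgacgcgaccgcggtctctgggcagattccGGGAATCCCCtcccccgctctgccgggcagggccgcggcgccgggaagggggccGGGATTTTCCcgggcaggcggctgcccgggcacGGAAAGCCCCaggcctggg
BATF, intron, chr14:75540201-75540400: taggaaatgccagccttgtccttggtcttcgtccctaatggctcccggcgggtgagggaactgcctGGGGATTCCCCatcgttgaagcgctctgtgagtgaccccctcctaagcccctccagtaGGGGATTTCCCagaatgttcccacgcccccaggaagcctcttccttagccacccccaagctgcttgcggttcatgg
FOSL1, distal upstream region, chr11:65915601-65915800: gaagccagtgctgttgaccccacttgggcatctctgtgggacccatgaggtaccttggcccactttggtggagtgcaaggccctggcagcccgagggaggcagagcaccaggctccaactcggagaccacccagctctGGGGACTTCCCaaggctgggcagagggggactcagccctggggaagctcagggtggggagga
FOSL1, nearer upstream region, chr11:65913001-65913200: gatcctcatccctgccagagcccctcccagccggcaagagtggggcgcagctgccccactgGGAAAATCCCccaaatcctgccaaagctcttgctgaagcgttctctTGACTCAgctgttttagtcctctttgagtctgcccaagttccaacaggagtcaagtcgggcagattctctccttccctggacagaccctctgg
JUN, upstream region, chr1:58815801-58816000: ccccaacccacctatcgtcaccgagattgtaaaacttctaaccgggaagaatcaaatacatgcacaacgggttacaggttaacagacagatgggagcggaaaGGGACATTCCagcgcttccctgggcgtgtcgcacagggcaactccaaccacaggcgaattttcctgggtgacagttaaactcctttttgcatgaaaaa
FOSB, upstream region, chr19:45455801-45456000: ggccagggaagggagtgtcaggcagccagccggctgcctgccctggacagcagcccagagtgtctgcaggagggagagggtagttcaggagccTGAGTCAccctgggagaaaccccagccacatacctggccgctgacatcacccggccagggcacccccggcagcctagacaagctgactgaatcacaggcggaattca

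The JUNB sequence held 4 separate κB matches within 200 bp, the BATF sequence 2 places with 4 overlapping matches, and the distal FOSL1 sequence 1 place with 2 overlapping matches. The nearer FOSL1 sequence held 1 κB match and 1 AP-1 motif, and was the single one of the 6 sequences with both. In the distal FOSL1 region the neighbouring listed bin, chr11:65915801-65916000, not shown, held 2 AP-1 motifs. The FOSB sequence held TGAGTCA and no κB match. Over the 29 listed bins of these genes, 9 (31.0%) held a κB match, against 38.6% of all listed bins of the genome and 2.91% of all bins. TGACTCA or TGAGTCA was in 4 of the 29 (13.8%), against 9.88% of all listed bins and 2.99% of all bins. TGACGTCA was in none of the 29, and in 0.541% of all listed bins and 0.0691% of all bins. A match is a run of letters and not a measured binding site.

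p65 signal was strongest by far just past the 3′ end of JUNB and was also listed near FOSB, FOSL1 and JUN, while FOS and ATF3 had no listed bin in any condition. In HT29 mock cells 16 bins in 4 genes were listed (JUNB 7, FOSB 4, FOSL1 3, JUN 2), and 21.6% of all protein-coding genes had a listed bin in an interval of the same kind. HT29 ERβ cells had 9 listed bins in 3 genes (JUNB 6, JUN 2, FOSB 1), beside 15.8% of all genes. SW480 mock cells had 6 in 2 genes (JUNB 5, FOSB 1), beside 7.59% of all genes. SW480 ERβ cells had 23 in 7 genes (JUNB 7, FOSL1 5, JUN 4, FOSB 4, and 1 each in JUND, FOSL2 and BATF), beside 31.7% of all genes. In any condition 7 of the 9 genes had a listed bin, in 29 bins and 16 regions, and 35.8% of all genes did. With the mean of the 4 inputs in place of the matched one, 13, 11, 8 and 20 bins in 3, 3, 3 and 6 genes were listed in HT29 mock, HT29 ERβ, SW480 mock and SW480 ERβ. The input bore on FOSL1: at its bin at -15127 bp HT29 mock had a mean of 3.05 over an input of 0.210, and SW480 mock a mean of 3.17 over an input of 1.21. The listing is a description, and no test was made of it.

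**Figure D1:**
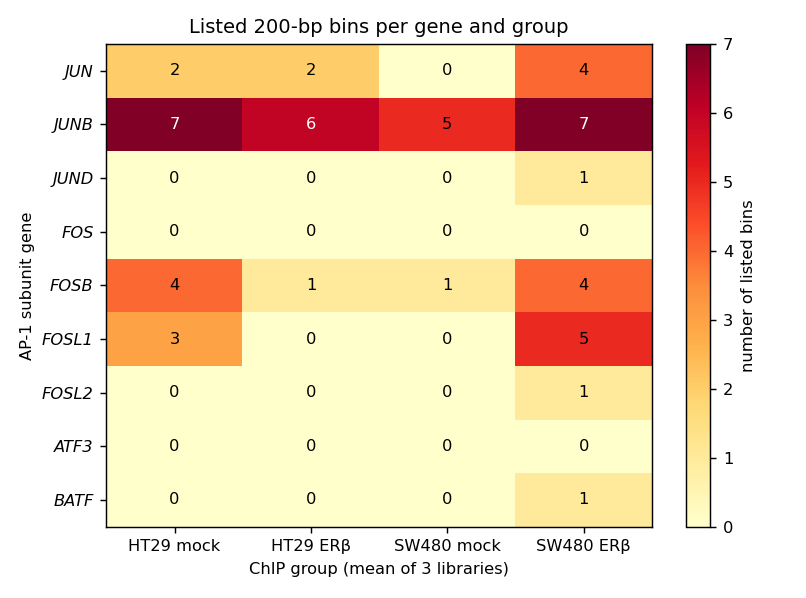
Number of listed 200-bp bins (condition mean of at least 2 and at least 4 times the matched input) of each AP-1 subunit gene, with genes in rows and the 4 ChIP conditions in columns. JUNB has 5 to 7 listed bins in every condition, FOS and ATF3 have none, and JUND, FOSL2 and BATF have 1 each, in SW480 ERβ alone.

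Of the 29 bins, 6 were listed in all 4 conditions, 12 in SW480 ERβ alone, 5 in HT29 mock alone and 1 in HT29 ERβ alone. These are 20.7%, 41.4%, 17.2% and 3.45% of the 29, against 7.42%, 43.6%, 11.2% and 2.98% of the 12569 listed bins of the genome, so the share listed in SW480 ERβ alone was near that of the genome. The 6 bins listed in all 4 conditions lie in 3 regions, and 4 of them are neighbouring bins of the JUNB region past the 3′ end. The numbers of listed bins moved with the libraries that stood apart. Listing each library by its own signal gave 33 bins in HT29 mock 1 against 11 and 12 in HT29 mock 2 and 3, and 17 in SW480 ERβ 1 against 32 and 34 in SW480 ERβ 2 and 3. HT29 ERβ libraries gave 16, 7 and 7, and SW480 mock libraries 4, 5 and 7. At the 16 regions, HT29 mock 1 was the highest library of its condition in 11 and HT29 ERβ 1 in 12, while SW480 ERβ 1 was the highest in none. With HT29 mock 1 left out, 14 bins in 4 genes were listed in HT29 mock, and with SW480 ERβ 1 left out, 31 in 7 genes were listed in SW480 ERβ. What part these libraries have in the differences between conditions was not tested beyond leaving each one out in turn.

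Some bins lay close to the limits. The lowest listed condition mean was 2.005 (JUN, HT29 ERβ), and the highest mean just under the limit on signal, at over 4 times input, was 1.979 (JUN, SW480 ERβ). In 28 cases a condition mean reached 2 but stayed under 4 times input, the highest at the FOSL1 promoter in SW480 ERβ, at 3.44 and 3.87 times input.

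Among the Jun genes, JUNB, an immediate early subunit, had the highest signal of all 9 genes. Its strongest bin, chr19:12793601-12793800, lay +2214 bp from the JUNB start site and began 286 bp past the annotated end of the gene, in an intron of an overlapping transcript of HOOK2. The transcript start nearest to this bin is one of HOOK2, from which the bin lies at -1118 bp. The bin stood 10th of the 12569 listed bins of the genome by mean over the 12 ChIP libraries. The signals were 16.9, 9.33 and 9.55 in HT29 mock, 14.8, 5.72 and 6.26 in HT29 ERβ, 19.0, 18.1 and 22.2 in SW480 mock, and 21.2, 37.8 and 28.9 in SW480 ERβ, with inputs of 0.170, 0.573, 1.11 and 0.640 in the same order. All 12 ChIP libraries were far above their inputs, and every SW480 library was above every HT29 library. The means were 11.9 ± 4.33, 8.92 ± 5.08, 19.8 ± 2.16 and 29.3 ± 8.30 (SD, n = 3 each). A second JUNB region, chr19:12788801-12789000 at -2586 bp from the start site, with 1 κB match, was listed in all 4 conditions. Its signals there were 7.85, 2.20 and 3.92 in HT29 mock, 6.22, 2.02 and 2.64 in HT29 ERβ, 1.44, 2.44 and 2.80 in SW480 mock, and 3.29, 6.77 and 6.09 in SW480 ERβ. The 4 conditions overlapped there, apart from SW480 ERβ lying above SW480 mock. The third, chr19:12782601-12782800 at -8786 bp and inside HOOK2, had 1.04, 1.56 and 0.771 in HT29 mock, 2.44, 0.279 and 0.616 in HT29 ERβ, 1.07, 0.974 and 0.782 in SW480 mock, and 1.86, 3.24 and 2.65 in SW480 ERβ, and was listed in SW480 ERβ alone.

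JUN, the founding Jun subunit, had its strongest bin at chr1:58815801-58816000, -31852 bp from its start site, inside the long noncoding gene LINC01135, with 1 κB match. Its signals were 5.78, 3.00 and 2.35 in HT29 mock, 3.55, 2.69 and 2.14 in HT29 ERβ, 0.774, 0.942 and 1.23 in SW480 mock, and 1.17, 3.65 and 2.67 in SW480 ERβ. The SW480 mock libraries were below all 6 HT29 libraries. The JUN regions near the start site held no searched motif, so their sequences are not shown. The one at -252 bp, chr1:58784201-58784400, had condition means of 1.38, 1.12, 1.49 and 2.73 in HT29 mock, HT29 ERβ, SW480 mock and SW480 ERβ, and the one at -852 bp had 1.54, 1.64, 1.95 and 2.15.

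JUND, the Jun subunit usually present before any stimulus, had 1 region, chr19:18280201-18280400 at +1322 bp, which overlaps the single exon of the gene and held 2 places with κB matches. The signals were 2.45, 0.850 and 1.66 in HT29 mock, 2.44, 1.26 and 1.08 in HT29 ERβ, 1.31, 1.24 and 1.25 in SW480 mock, and 2.18, 3.57 and 2.66 in SW480 ERβ. The bin was listed in SW480 ERβ alone, and libraries 1 of both HT29 conditions reached signals like those of SW480 ERβ 1.

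Among the Fos genes, FOSB, an immediate early gene with several splice forms, had the strongest bin at chr19:45455801-45456000, -12095 bp from its start site in an intron of the neighbouring DNA repair gene ERCC1. Its signals were 9.76, 3.87 and 4.53 in HT29 mock, 8.39, 4.88 and 4.12 in HT29 ERβ, 5.51, 5.48 and 5.20 in SW480 mock, and 6.05, 9.94 and 8.65 in SW480 ERβ. The 4 conditions overlapped, apart from SW480 ERβ lying above SW480 mock. This was the single FOSB bin listed in SW480 mock. The transcript start nearest to it is one of ERCC1, from which the bin lies at -5175 bp. A bin in the first part of FOSB, chr19:45469001-45469200 at +1105 bp and with 1 κB match, had condition means of 3.00, 2.11, 1.40 and 2.58 in HT29 mock, HT29 ERβ, SW480 mock and SW480 ERβ. In the same order the bin at -43695 bp had 2.15, 2.15, 1.09 and 2.15. That bin overlaps an exon of ERCC1, at +67 bp from an ERCC1 transcript start, and the gene start nearest to it is that of POLR1G.

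FOSL1, whose product Fra-1 is common in invasive carcinoma cells, had 4 regions. The strongest, chr11:65915601-65915800 at -15127 bp, had signals of 2.91, 3.42 and 2.83 in HT29 mock, 2.54, 2.54 and 1.64 in HT29 ERβ, 3.48, 3.26 and 2.77 in SW480 mock, and 4.57, 6.74 and 11.4 in SW480 ERβ. The 3 SW480 ERβ libraries were above the other 9. At -12527 bp, chr11:65913001-65913200 had 2.21, 1.35 and 2.36 in HT29 mock, 0.972, 2.12 and 2.46 in HT29 ERβ, 0.902, 1.35 and 1.88 in SW480 mock, and 3.83, 3.87 and 7.24 in SW480 ERβ, again with the SW480 ERβ libraries above the other 9. The bin at -12527 bp was listed in SW480 ERβ alone, so it was chosen through that high signal. The start site nearest to both bins is that of C11orf68, not of FOSL1. At the FOSL1 promoter, chr11:65900601-65900800 at -127 bp, the means were 2.25, 1.71, 2.71 and 3.44 in the same order of conditions, and the bin at -18727 bp, at the 5′ end of DRAP1, had 1.26, 1.03, 1.76 and 2.29.

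FOSL2, which encodes Fra-2, had 1 listed bin, chr2:28359401-28359600 at -32948 bp and with none of the 3 motifs. Its signals were 0.335, 0.350 and 0.660 in HT29 mock, 0.347, 0.630 and 1.01 in HT29 ERβ, 0.649, 0.913 and 0.390 in SW480 mock, and 1.83, 1.62 and 2.86 in SW480 ERβ, against an input of 0.460 in SW480 ERβ. The SW480 ERβ libraries were above the other 9, and the 4 inputs were 0.454 to 0.663. As the bin was listed in SW480 ERβ alone, it was chosen through that high signal.

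BATF, a partner of Jun proteins best known in lymphocytes, also had 1 listed bin, chr14:75540201-75540400 at +17845 bp in an intron of the gene. Its signals were 1.65, 0.381 and 1.02 in HT29 mock, 1.85, 0.915 and 0.860 in HT29 ERβ, 0.669, 1.86 and 2.24 in SW480 mock, and 3.67, 5.77 and 6.11 in SW480 ERβ. SW480 ERβ was above the other 9 libraries, and its mean of 5.18 ± 1.33 (SD, n = 3) was 32.4 times its input of 0.160. This bin too was listed in SW480 ERβ alone and so was chosen through that signal.

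FOS, the immediate early gene that gives the Fos family its name, had no bin with a mean over the 12 libraries above 0.896. Its promoter bin, chr14:75278801-75279000, had 0.520, 0.541 and 0.367 in HT29 mock, 0.984, 0.220 and 0.610 in HT29 ERβ, 1.67, 1.05 and 1.45 in SW480 mock, and 0.830, 0.826 and 0.587 in SW480 ERβ, with inputs of 0.210 to 0.971. ATF3, a stress response gene, reached a mean over the 12 libraries of 1.24 in its highest bin, chr1:212607601-212607800 at +42366 bp. Its condition means there were 1.36, 0.957, 1.04 and 1.60 in HT29 mock, HT29 ERβ, SW480 mock and SW480 ERβ. Its promoter bin had 0.424, 0.494, 0.381 and 0.440.

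**Figure D2:**
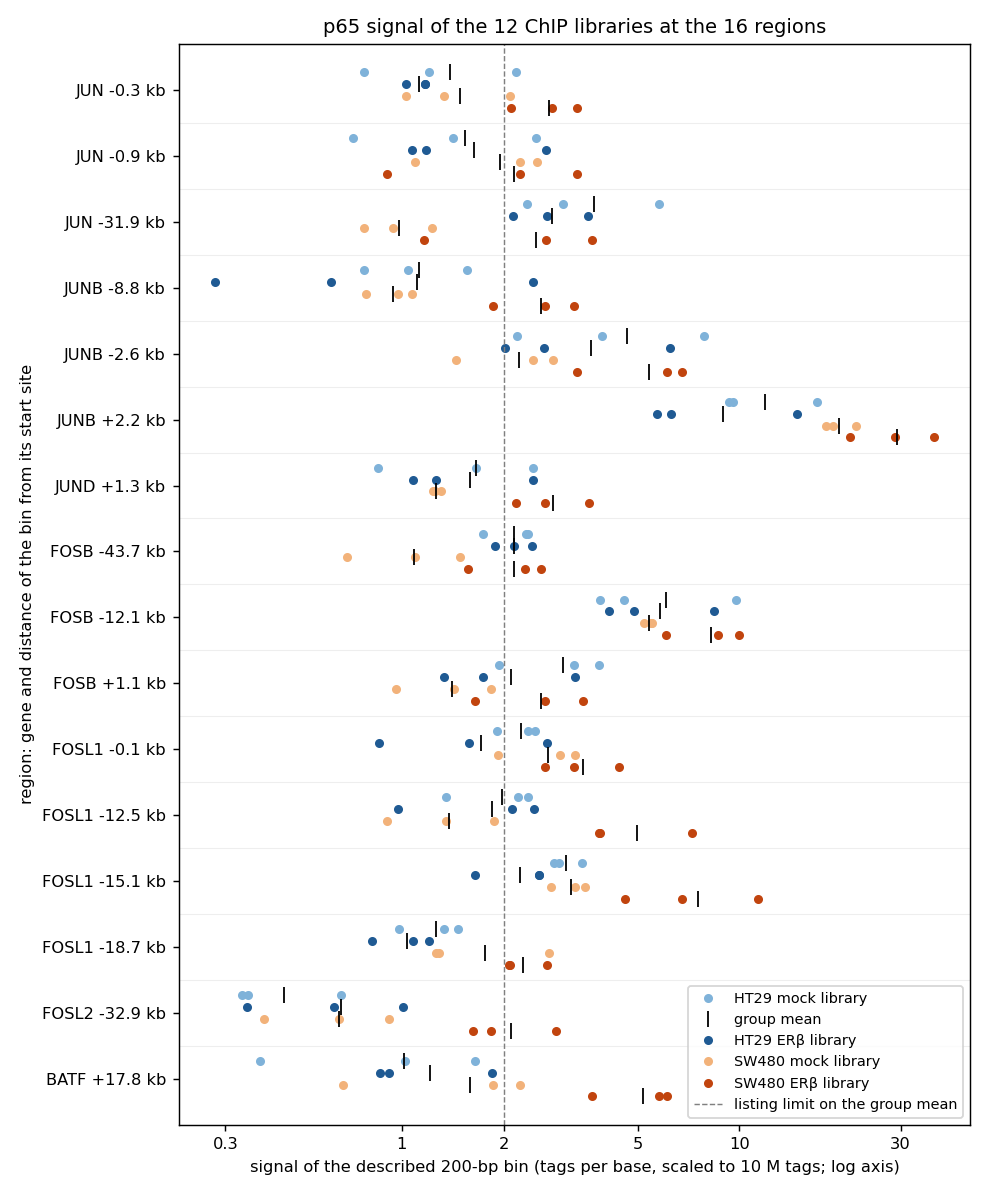
Signal of each of the 12 ChIP libraries (log axis, tag density scaled to 10 M tags) at the 16 listed regions, coloured by condition, with the limit of 2 as a line. The JUNB region past the 3′ end lies highest, between 5.72 and 37.8. At the BATF and FOSL2 regions and the 2 FOSL1 regions at -12527 and -15127 bp the 3 SW480 ERβ libraries lie above the other 9. The BATF and FOSL2 regions and the FOSL1 region at -12527 bp were listed in SW480 ERβ alone, so this order is partly fixed by how they were chosen. The FOSL1 region at -15127 bp was listed in HT29 mock and SW480 ERβ.

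The highest bin near the start site of each gene was read as its promoter bin, and except at JUN and FOSL1, described above, it was not listed in any condition. The JUNB promoter, at +14 bp, had 0.921, 1.26 and 0.902 in HT29 mock, 1.07, 0.653 and 0.220 in HT29 ERβ, 1.64, 1.92 and 1.01 in SW480 mock, and 1.70, 1.60 and 2.02 in SW480 ERβ, while the region past the 3′ end was at 5.72 or more in every library. The JUND promoter bin, at +122 bp, had 1.66, 0.983 and 0.740 in HT29 mock, 0.914, 0.560 and 0.440 in HT29 ERβ, 1.32, 1.54 and 1.75 in SW480 mock, and 2.00, 2.44 and 2.31 in SW480 ERβ. The BATF promoter bin, at +45 bp, had 0.413, 0.30 and 0.477 in HT29 mock, 0.549, 0.532 and 0.340 in HT29 ERβ, 0.632, 1.33 and 0.489 in SW480 mock, and 1.62, 1.58 and 2.17 in SW480 ERβ. At JUND and BATF the SW480 ERβ libraries were above the other 9. How many bins of the genome show such an order was not counted. The FOSB promoter bin, at -295 bp, was the single promoter bin with TGACGTCA, and had 3.21, 0.918 and 1.30 in HT29 mock, 2.13, 0.989 and 2.53 in HT29 ERβ, 0.788, 1.04 and 1.16 in SW480 mock, and 0.728, 1.99 and 0.780 in SW480 ERβ. The FOSL2 promoter means were 0.803, 0.674, 0.708 and 1.08.

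**Figure D3:**
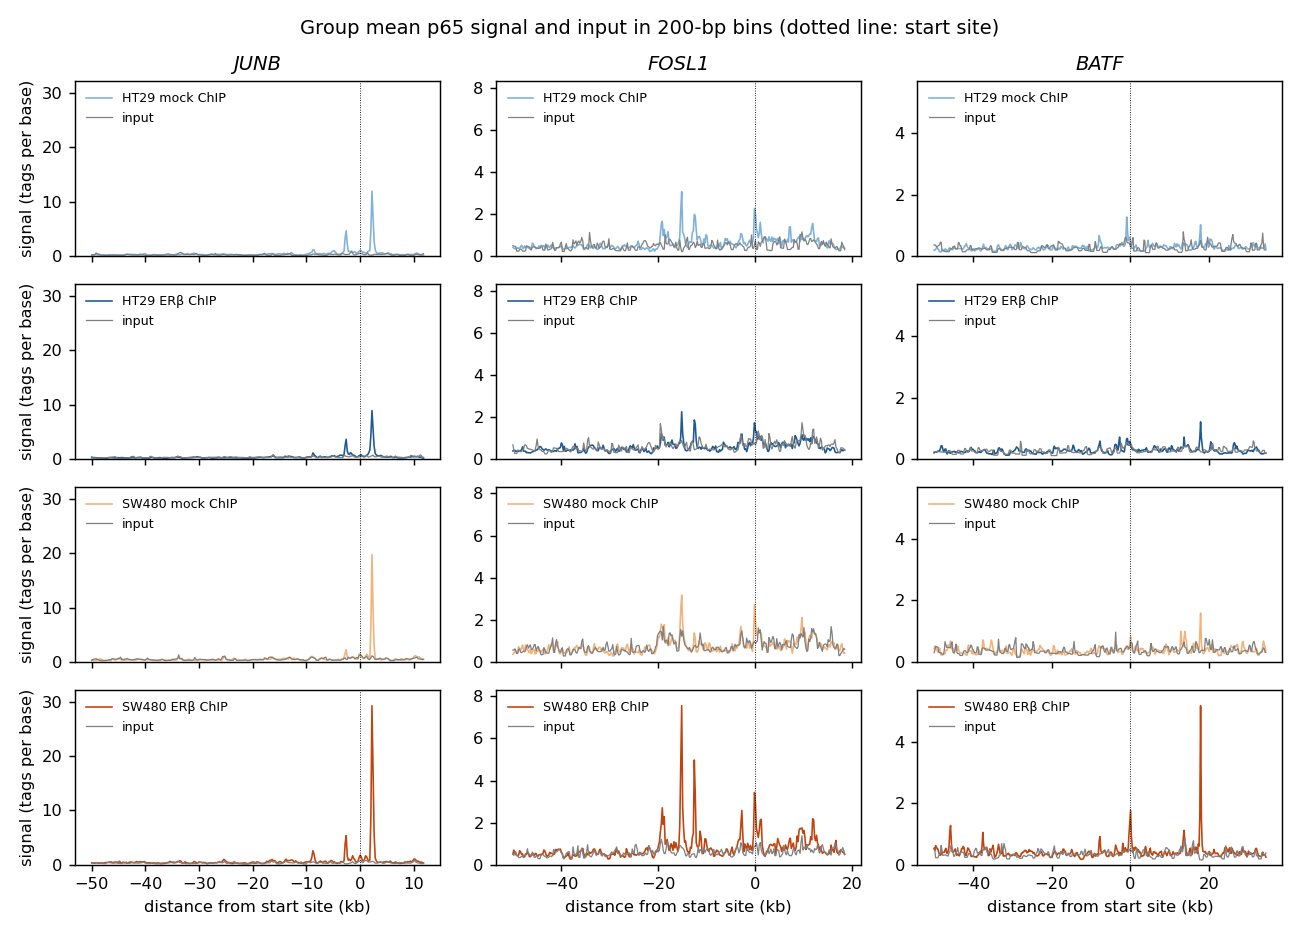
Mean ChIP signal of each condition (coloured, 1 row of panels per condition) and its matched input (grey) in 200-bp bins against distance from the start site (kb, along the direction of the gene) for JUNB, FOSL1 and BATF. JUNB peaks past the 3′ end in every condition, with means of 8.92 to 29.3, and in SW480 ERβ the tallest peaks of FOSL1, at 7.56 and 4.98, lie upstream and that of BATF, at 5.18, lies inside the gene.

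The first comparison asked whether ERβ changed p65 occupancy within each line. Bins were tested across the genome with limma on log2(signal + 1), whether or not they were listed, and a difference is given as a log2 difference on that scale, which understates the change of low bins. Of the bins of the 9 genes, 215 were among the 109165 tested, and a bin was called at a Benjamini-Hochberg adjusted p under 0.05 over all of them. In HT29 none of the 215 bins was called in either direction, and 6 had an unadjusted p under 0.05, while over the genome 3 bins (0.00275%) were called higher in ERβ and 3646 had an unadjusted p under 0.05. At the 16 regions the HT29 differences ran from -0.45 to 0.19, with every limma adjusted p at 1. The lowest was at the JUNB region past the 3′ end, at -0.45 (SE 0.31). There each HT29 ERβ library was below the mock library of the same number. With the replicate number as a block in the fit, the SE there was 0.18 (limma adjusted p = 0.691), and none of the 16 regions was called. The FOSB region at +1105 bp and the FOSL1 promoter region were listed in HT29 mock alone. Their HT29 differences, -0.38 (SE 0.33) and -0.32 (SE 0.33), were thus partly fixed by how they were chosen.

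In SW480, 11 of the 215 bins (5.12%) were called higher in ERβ and none lower, against 5.44% higher and 0.0733% lower over all tested bins, so the share among the AP-1 subunit genes was near the background. Among bins with a mean over the 12 libraries of at least 1, 6 of 79 (7.59%) were called higher, against 16% of all such bins. With a library left out, 3 to 18 of the 215 were called. Without SW480 mock 1 or SW480 ERβ 2 the share called higher was 1.40%, against 2.58% and 2.60% of all tested bins. Without SW480 ERβ 1 it was 8.37%, against 9.24%. The 11 lay in FOSL2 (4), BATF (3), FOSL1 (2) and JUNB (2). The median difference was 0.22 over the 215 bins and 0.13 over all tested bins, and 172 of the 215 differences were above 0. In HT29 these medians were -0.05 and -0.04, and 85 of the 215 differences were above 0. How many of all tested bins lay above 0 was not counted. The scale of the libraries bore on the SW480 numbers. With the libraries rescaled to equal medians, which took the median over all tested bins to 0.02, 6 of the 215 were called higher and 1 lower (2.79% and 0.465%, against 3.56% and 0.381% of all), and with quantile normalization, which took it to -0.02, 1 was called higher and 1 lower (0.465% each, against 1.80% and 0.468% of all). The median over the 215 bins became 0.08 at equal medians and -0.004 under quantile normalization. The limits on tested bins use the mean over all 12 libraries, so a bin can pass them through SW480 ERβ. Of the 11 called bins 3 passed only with the SW480 ERβ libraries, as did 53.6% of all bins called higher.

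Of the 16 regions, 9 were listed in SW480 ERβ alone. They became regions through SW480 ERβ, by its signal or its input, so their differences are given as sizes, with no test. At FOSB at -43695 bp it was the input. The means of HT29 mock, HT29 ERβ and SW480 ERβ there were 2.147, 2.155 and 2.155, over inputs of 0.70, 0.849 and 0.30. SW480 ERβ was above SW480 mock by 1.29 (SE 0.31) at the BATF intron region, by 1.30 (SE 0.33) at the FOSL1 region at -12527 bp, by 0.90 (SE 0.21) at the FOSL2 region, by 0.87 (SE 0.27) at the JUNB region at -8786 bp and by 0.73 (SE 0.30) at the JUND region. The rest of these regions differed by less. The values were 0.60 (SE 0.28) and 0.05 (SE 0.31) at JUN at -252 and -852 bp, 0.60 (SE 0.29) at FOSB at -43695 bp and 0.29 (SE 0.27) at FOSL1 at -18727 bp. The FOSL2 region and the BATF promoter, where the difference was 0.64 (SE 0.19), were among the tested bins only through SW480 ERβ. The JUN region at -31852 bp and the FOSL1 region at -15127 bp, listed in some other conditions but not in SW480 mock, differed by 0.76 (SE 0.34) and 0.96 (SE 0.37).

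At the 3 regions listed in all 4 conditions no difference was called in SW480 in the fit without a replicate block. The JUNB region past the 3′ end differed by 0.51 (SE 0.31, limma adjusted p = 0.400), and the JUNB region at -2586 bp by 0.96 (SE 0.39, limma adjusted p = 0.150). The FOSB region at -12095 bp differed by 0.50 (SE 0.38, limma adjusted p = 0.529), and by -0.20 under quantile normalization. A fit with the replicate number as block gave limma adjusted p of 0.0419, 0.000555 and 0.0992 at these regions in the same order. That pairing was weak in SW480, where the deviations of same-numbered libraries had correlations of 0.170, 0.0692 and 0.0809. Under that block 15.8% of the 215 bins and 13.5% of all tested bins were called higher.

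**Figure D4:**
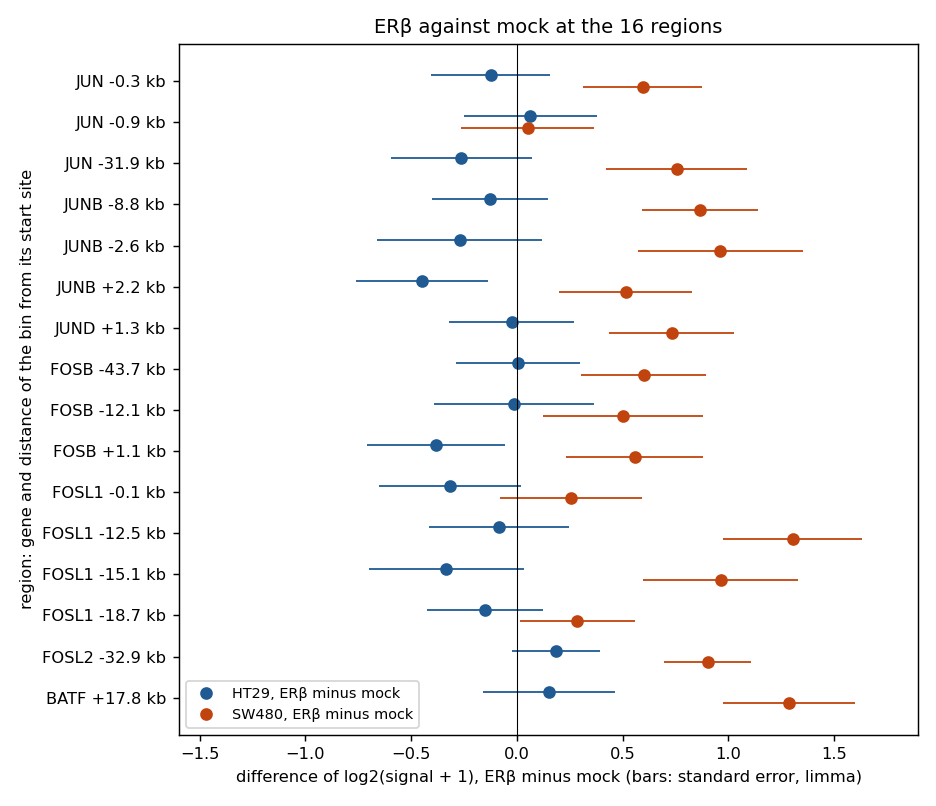
Log2 difference, ERβ minus mock, with its standard error, at the 16 listed regions in HT29 and in SW480, from the limma fit without a replicate block, with 3 libraries per condition. HT29 values lie between -0.45 and 0.19, and the highest SW480 values, 1.30 and 1.29, are at FOSL1 at -12527 bp and at BATF, both listed in SW480 ERβ alone.

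Whether the ERβ difference was unlike in the 2 lines was tested by the interaction, SW480 minus HT29. Of the 215 bins 1 (0.465%) was called, against 1.41% of all tested bins called higher in this direction. The bin, chr2:28396801-28397000, lies in an intron of FOSL2 at +4452 bp and was not listed in any condition. Its signals were 2.17, 0.870 and 0.604 in HT29 mock, 0.759, 0.530 and 1.00 in HT29 ERβ, 0.280, 0.383 and 0.400 in SW480 mock, and 0.882, 2.35 and 1.64 in SW480 ERβ. The high HT29 mock 1 value stood alone in its condition. The interaction was 1.19 (SE 0.32, limma adjusted p = 0.0374), and without HT29 mock 1 it was 0.90 (limma adjusted p = 0.157). It was also lost without 7 other libraries in turn and under quantile normalization, over a range of 0.90 to 1.41 with a library left out. None of the 16 regions was called for the interaction without a replicate block. The JUNB region past the 3′ end gave 0.96 (SE 0.44, limma adjusted p = 0.294). This depended on the pairing of the libraries. With the replicate number within each line as a block, 23 of the 215 bins (10.7%) were called higher, against 8.95% of all tested bins. Of the 3 regions listed in all 4 conditions the block called 2, with a limma adjusted p of 0.00827 at the JUNB region past the 3′ end and 0.00366 at that at -2586 bp, and 0.305 at the FOSB region. The 13 other regions were chosen through the conditions that listed them, so calls of the block there are not given. In HT29 same-numbered libraries deviated together, though number 1 alone stood out, and there the block called no bin of the 9 genes for ERβ. In SW480 the deviations of same-numbered mock and ERβ libraries had correlations of 0.170, 0.0692 and 0.0809, and those of different numbers -0.103 to 0.0317. The labels do not say what a number shared, so the blocked interaction rests on an uncertain pairing.

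The second comparison set SW480 against HT29 with the same construct. In mock cells 4 of the 215 bins (1.86%) were higher in SW480 and 12 (5.58%) lower, against 5.27% and 11.4% of all tested bins. The higher ones were in JUND (2), FOS (1) and BATF (1), and the lower ones in JUN (5), JUNB (2), FOSB (2), FOSL1 (1), FOSL2 (1) and BATF (1). The split depended on scaling, with 11 higher and 12 lower at equal medians (9.41% and 12.1% of all bins), 22 and 11 under quantile normalization (12.1% and 12.3% of all), and 1 and 11 when the signal was divided by the matched input averaged over 100 kb (1.29% and 6.24% of all). Without HT29 mock 1, 4 bins were called, none of them lower, beside 3.39% higher and 5.46% lower of all bins. Leaving out SW480 mock 1, 2 or 3 in turn left 1, 4 and 3 lower, beside 6.99%, 7.55% and 7.46% of all bins. The JUN region at -31852 bp was listed in both HT29 conditions and not in SW480 mock, and its difference of -1.19 (SE 0.34), or -1.40 to -0.89 with a library left out, is given with no test. The JUNB region past the 3′ end was at 0.73 (SE 0.31, limma adjusted p = 0.102), and at -0.15 after division by the local input. At FOS, which had no listed bin, 1 bin chosen after its values were seen, at +274 bp, was higher in SW480 mock by 0.76 (limma adjusted p = 0.00405), with means of 0.455 (HT29) and 1.44 (SW480). The mock inputs of this bin were 0.210 and 0.845, so the input was higher in SW480 too.

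In ERβ cells 38 of the 215 bins (17.7%) were higher in SW480 and 1 (0.465%) lower, against 16.7% and 6.67% of all tested bins. The higher bins lay in 8 genes, with 9 in JUNB, 8 in BATF, 7 each in JUND and FOSL1, 3 in FOSL2, 2 in FOS and 1 each in JUN and FOSB, and ATF3 had no called bin in any comparison. At the JUNB region past the 3′ end, listed in all 4 conditions, the difference was 1.69 (SE 0.31, limma adjusted p = 4.14e-05), and at the JUND promoter 1.00 (SE 0.25, limma adjusted p = 0.00208), and both calls held with each library left out in turn. The call at the JUNB promoter (0.78, limma adjusted p = 0.0134) was lost after division by the local input and with 2 of the 12 libraries left out in turn (limma adjusted p up to 0.146). Regions listed in SW480 ERβ but not in HT29 ERβ are given as sizes, with no test. The difference was 1.49 (SE 0.31) at the BATF intron region, 1.34 (SE 0.37) and 1.06 (SE 0.33) at the FOSL1 regions at -15127 and -12527 bp, 0.90 (SE 0.21) at the FOSL2 region and 0.88 (SE 0.27) at the JUNB region at -8786 bp. The rest of these regions differed by less. The values were 0.80 (SE 0.28) and 0.23 (SE 0.31) at JUN at -252 and -852 bp, 0.69 (SE 0.27) at FOSL1 at -18727 bp, 0.57 (SE 0.30) at JUND and -0.01 (SE 0.29) at FOSB at -43695 bp. Of the 38 higher bins 20 passed the limits on tested bins only with the SW480 ERβ libraries, as did 61.0% of all bins called higher. Division by the local input left 18 higher and 1 lower (10.5% and 3.27% of all bins), and quantile normalization 25 higher and 10 lower (11.7% and 10.9% of all). The 2 comparisons of lines and the 2 of ERβ share libraries, so their calls are not independent of each other.

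The level of the whole interval also differed between the lines, in inputs as well as in ChIP libraries. For JUNB the median bin signal was 0.234 to 0.290 in HT29 ChIP libraries and 0.380 to 0.466 in SW480 ones, and 0.212 to 0.297 and 0.340 to 0.440 in the inputs. The intervals of JUND, FOS, FOSL1 and BATF were likewise higher in SW480 ChIP and input libraries. The FOSB interval was lower in SW480, at 0.400 to 0.490 against 0.540 to 0.660 in ChIP libraries and 0.381 to 0.450 against 0.476 to 0.590 in inputs. The JUN interval was lower too, at 0.360 to 0.410 against 0.419 to 0.460 in ChIP libraries and 0.350 to 0.390 against 0.406 to 0.410 in inputs. The part of this level in the differences between lines was measured by the division by local input alone.

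Across the 12 ChIP libraries, the promoters whose signal pattern was most like a region were found among 817 promoter bins by Pearson's r of log2(signal + 1), as a description over points that share libraries and condition. The JUNB region past the 3′ end was most like RBX1 (r = 0.988), POLRMT (0.979) and TBL1X (0.973). The FOSB region at -12095 bp was most like REL (r = 0.963), itself an NFκB subunit, CFAP298-TCP10L (0.960) and PLEKHA3 (0.958). The FOSL1 region at -15127 bp was most like ZNF385C (r = 0.896), TPSG1 (0.885) and PALD1 (0.883).

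Other lists of the pathway were read in the same way. For HT29 mock, HT29 ERβ, SW480 mock and SW480 ERβ, 21.6%, 15.8%, 7.59% and 31.7% of all protein-coding genes had a listed bin. Of 11 other basic leucine zipper partners, 2, 1, 1 and 4 had one in the same order, and the 4 were ATF4, MAFF, MAFG and MAFK. Of 13 kinases of the JNK, ERK and p38 arms that act on AP-1, 5, 4, 3 and 5 had one. The 3 highest bins of these lists were near MAFF, a small Maf protein, at +17933 bp with condition means of 11.8, 9.93, 20.4 and 25.3, at MAP3K8, a kinase of the ERK arm, at -121 bp with 7.95, 7.59, 5.60 and 11.1, and at MAP2K3, a kinase of the p38 arm, at +3228 bp with 5.52, 4.86, 6.78 and 9.82. Like JUNB, MAFF had means above 8 in every condition.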

How the data were processed

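Signal tracks of 12 p65 ChIP and 4 input libraries were analysed. Per the labels and the methods of the study, the authors aligned reads with STAR to GRCh38 (hg38) and built the tracks with HOMER. The deposited signal is coverage, a density of tags at each base that the authors set to a total of 10 M tags per library, and densities under 0.05 are absent from the files. The labels list the antibody and TNFα on the inputs too, which were read as inputs. Tool versions are not given in the sources used here. The tracks do not show how high 1 tag is, so the count test of the study (edgeR) was replaced by limma, and the mapped reads that the study lists were not used here.

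Signal was averaged in 200-bp bins of chromosomes 1 to 22 and X. Genes, starts and exons came from GENCODE release 44. A bin was listed for a condition at a mean of at least 2 and at least 4 times the matched input. Bins with a mean over 12 ChIP libraries of at least 0.5 and at least 1.5 times the mean of the inputs were tested with limma 3.58.1 in R 4.3.3 (trend, pseudocount of 1, Benjamini-Hochberg adjustment, threshold 0.05), with 1 coefficient per condition and no block. All 9 genes were named, with their listed regions, highest bin and promoter bin, and the bin called for the interaction was named after its values were seen. Region sequences were read from GRCh38 and motifs matched exactly on both strands. Same-numbered mock and ERβ libraries deviated together in HT29 (correlations 0.497, 0.208 and 0.186 for numbers 1, 2 and 3, all over the limit of 0.1 for taking numbers as pairs). Different numbers 2 and 3 gave 0.221 and 0.166, so number 1 alone stood out, and the labels do not say what a number shared. The fit with the number as block called no HT29 member bin either. The fit was tested on simulated data. Scripts used Python 3.11.15, numpy 2.4.6, pandas 2.3.3, numba 0.67.0, pysam 0.24.0, scipy 1.17.1, matplotlib 3.10.9 and samtools 1.23.1. Alternatives covered limits, scaling, pseudocount, bin grid, input, block and left-out libraries. The genes and lists were chosen with earlier results of these data known. Columns other than position and signal were not used.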

Additional observations from a re-analysis of the deposited data

Results flagged for a closer look

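The ERβ difference differed between the lines, by the limma interaction term, at 1 bin of the 9 genes, in a FOSL2 intron at +4452 bp, with an interaction of 1.19. The HT29 difference was -0.27 and the SW480 difference 0.92. The values of the 12 libraries are given with the comparison, and the call was lost with 8 of the 12 libraries left out in turn, HT29 mock 1 among them. No bin of the 9 genes was called for the interaction under 6 other settings, and 23 were with the replicate block. One of those settings, a mean of at least 1, did not test the FOSL2 bin, and the shifted grid has no bin at that place. These settings could not call it.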

How the results depend on the processing

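Of the AP-1 subunit bins, none was called for HT29 ERβ against mock under any alternative. For SW480 ERβ against mock the 11 calls among 215 bins became 6 of 79 among bins with a mean of at least 1 (16% of all such bins), 7 at equal medians, 2 under quantile normalization and 34 with the replicate block, and 3 to 18 with a library left out. Without SW480 mock 1 and without SW480 ERβ 2 there were 3 (1.40% each, against 2.64% and 2.63% of all tested bins). There were 4 without SW480 ERβ 3 (1.86%, against 3.01%), 5 without SW480 mock 2 (2.33%, against 2.89%) and 7 without SW480 mock 3 (3.26%, against 3.75%). Without SW480 ERβ 1 there were 18 (8.37%, against 9.34%). Same-numbered SW480 libraries had correlations of 0.170, 0.0692 and 0.0809, not all over the limit of 0.1 for taking numbers as pairs. Different numbers gave -0.103 to 0.0317. The 34 are 15.8% of the 215 bins, beside 13.5% of all tested bins under the same block.

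For SW480 against HT29 in mock cells the 16 calls (7.44%, against 16.7% of all bins) became 5 of 79 at a mean of at least 1 (6.33%, against 30.1%), 71 of 852 with no limit on input (8.33%, against 24.7%) and 33 under quantile normalization (15.3%, against 24.3%), and 4 to 19 with a library left out. The 4 (1.86%, against 8.85%) came without HT29 mock 1, and the 19 (8.84%, against 18.7%) without HT29 ERβ 1. In ERβ cells the 39 calls (18.1%, against 23.4%) became 24 of 79 (30.4%, against 39.7%), 118 of 852 with no limit on input (13.8%, against 21.9%), 19 after division by local input (8.84%, against 13.8%), and 22 to 48 with a library left out. The 22 (10.2%, against 18.2% and 16.9%) came without HT29 ERβ 2 or SW480 ERβ 2, and the 48 (22.3%, against 25.65%) without HT29 mock 1. The 1 interaction call became 0 with a pseudocount of 2, a mean of at least 1, no limit on input, equal medians, quantile normalization or a grid shifted by 100 bp, 23 with the replicate block, and 0 to 4 with a library left out. At a mean of at least 1 the called bin itself was not tested. The 4 (1.86%, against 3.50%) came without HT29 ERβ 1.

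Listed bins in HT29 mock fell from 16 to 10 and in HT29 ERβ from 9 to 5 at a limit of 3. Those of SW480 mock fell from 6 to 3 when the interval ended 2 kb downstream of the start. Those of SW480 ERβ went from 23 to 37 at a limit of 1.5 and to 14 at 3, where 4 genes in place of 7 had a listed bin.

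Differences changed sign at the FOSB region at -12095 bp under quantile normalization (-0.20 for SW480 ERβ against mock, -0.43 for the interaction), at the JUNB region past the 3′ end after division by local input (-0.15 for SW480 against HT29 mock), and at the FOSL2 intron bin in HT29 with a library left out (-0.47 to 0.018). The cause was not tested. The tracks hold no depth, which limits what a bin that was not called can say.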
